A study of Mus musculus with 15 samples.

Results

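Mammary epithelial cells of pregnant mice were compared after 2 inhibitors of epigenetic silencing, 5-azacytidine (AzaC) and valproic acid (VPA). The comparison rests on 6 of the 15 arrays of the series, chosen by their labels: 3 arrays of cells from AzaC treated pregnant mice and 3 of cells from VPA treated pregnant mice. All mice were C57BL/6 females, labelled as pregnant at day 21, and the agents were given by intraperitoneal injection. Doses and injection times are not in the labels. The 2 arrays of PBS-injected mice at the same stage served as the control, and the arrays labelled virgin at 9 weeks (2 PBS, 3 AzaC, 2 VPA) were used for the spread between arrays and for 1 comparison of stages. The cells had been purified from digested glands, and their mRNA was labelled with biotin and hybridised to Affymetrix arrays. Whether each replicate is a mouse of its own is not in the labels. The p-values therefore measure only the spread between these samples, which may be technical.

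AzaC is a nucleoside analogue that, once built into DNA, traps the DNA methyltransferases, so that methylation of CpG sites is lost as cells divide. VPA is a short branched fatty acid that inhibits class I and class IIa histone deacetylases and thereby raises histone acetylation. DNA methylation and histone deacetylation act together at many silenced genes, and both agents are used to reopen them. Late in pregnancy the gland is near the start of secretion: the alveolar cells hold large amounts of milk-protein mRNA, synthesise milk fat from glucose, and are leaving the phase of growth.

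Levels are the authors' log2 signals, in which a difference of 1 is a doubling. Each of the 12393 genes was represented by 1 probe set, and signals of different genes cannot be ranked against each other, because probes differ in their response. The 6 drug arrays lay between 13.3 and 38.4 on the first principal component of all 15 arrays (55.2% of the variance), and both PBS arrays lay at -25.4 and -28.3. On the second component (14.9%) VPA replicate 3 stood apart at -28.5, with the other 5 drug arrays between -12.0 and 13.7. The difference between the 3' and the 5' control probe sets of Gapdh, a sign of how much of the mRNA length was copied, was 0.85 on AzaC replicate 1 and 0.82 on VPA replicate 3, and between -0.17 and 0.20 on the other 4 drug arrays. The beta-casein transcript Csn2 read 13.69 to 13.94 on the arrays labelled virgin and 13.69 to 14.03 on those labelled pregnant. These readings lie close to the top of the scale, where differences between high levels may be compressed. The transcript was thus high under both labels, and it does not set them apart. Olah, an enzyme of milk fat synthesis, read 12.51 to 13.15 on the arrays labelled virgin and 12.89 and 12.54 on the pregnant PBS arrays. On the first component the PBS arrays labelled virgin lay at -9.8 and -28.2. Whether the stage labels are right was not tested.

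No gene separated the 2 drugs once all genes were tested together. With limma and Benjamini-Hochberg adjustment, 0 of 12393 genes (0%) passed an adjusted p of 0.05, and the smallest adjusted p was 0.189. At an unadjusted p under 0.05 there were 468 genes, 3.78% of those tested. That is fewer than such a cut passes on average where no gene differs. Every AzaC array was above every VPA array for 312 genes (2.52%), and every VPA array was above every AzaC array for 686 genes (5.54%). This split depended on the scaling of the arrays: after quantile normalization the counts were 433 and 417, so the share higher with AzaC among genes whose arrays did not overlap moved from 31.3% to 50.9%. With 3 arrays a side, arrays also separate for many genes that do not differ, so separation alone does not show a difference. Correlations across genes, which are not independent replicates, were 0.965 to 0.972 between AzaC arrays, 0.959 to 0.979 between VPA arrays and 0.959 to 0.978 between an AzaC and a VPA array. In bulk samples such as these, fewer cells of a type and less RNA per cell cannot be told apart.

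The precision of the comparison was set by the 3 arrays in each group and by the spread within groups, which was pooled over all 15 arrays. The median standard deviation (SD) of a gene was 0.28 with either drug, and the median standard error (SE) of the AzaC minus VPA difference was 0.26. For 8509 genes (68.7%) the 95% confidence interval of that difference, not adjusted for the number of genes, lay wholly between -1 and 1, so that for them a difference of more than 2-fold lay outside the interval. For genes with a mean over the 15 arrays from 8 to 10 this share was 86.1%, and for genes with a mean of 4 or less it was 6.02%. Absolute differences above 1 were measured for 307 genes between the drugs, 1686 genes between AzaC and PBS and 1674 genes between VPA and PBS. The median absolute difference was 0.18 between the drugs, 0.39 between AzaC and PBS and 0.38 between VPA and PBS.

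**Figure D1:**
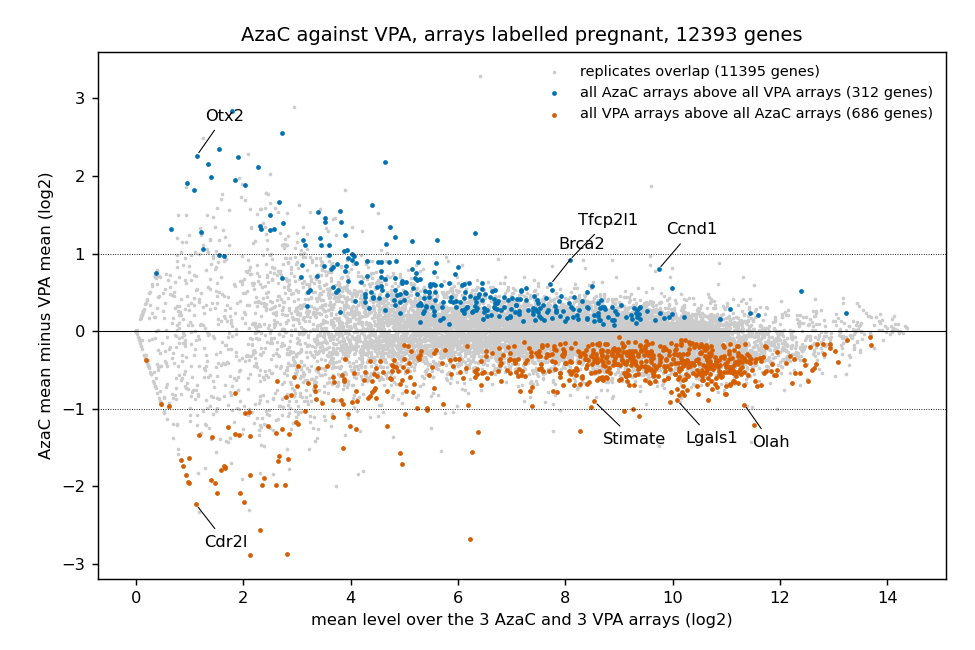
Difference between the AzaC and the VPA mean (log2, vertical) against the mean level over the 6 drug arrays (log2, horizontal) for 12393 genes, each a point, with dotted lines at differences of 1 and -1. Blue points are the 312 genes with every AzaC array above every VPA array and orange points the 686 genes with the opposite order, which are frequent at levels above 8.

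Both drugs were accompanied by large differences from PBS, and the same genes can be compared directly between the drugs. Against PBS, 466 genes rose (3.76%) and 472 fell (3.81%) with AzaC, and 451 rose (3.64%) and 290 fell (2.34%) with VPA. After quantile normalization the split with VPA was 369 up and 392 down. When only the 5 arrays of each comparison were fitted, 0 genes passed with AzaC (3049 at an unadjusted p under 0.05) and 364 with VPA. Both comparisons share the same 2 PBS arrays, and the counts lean on them. Without PBS replicate 1 they were 16 for AzaC and 24 for VPA, and without PBS replicate 2 they were 14 and 20. They also fell without AzaC replicate 1 (177) or 3 (138) and without VPA replicate 1 (214), 2 (193) or 3 (231). Of the 938 genes called with AzaC, 706 (75.3%) had an AzaC minus VPA interval within -1 and 1, as did 569 (76.8%) of the 741 called with VPA, against 68.7% of all genes. Separated arrays were found for 10.8% and 10.4% of these genes, against 8.05% of all genes. Calling favours genes with a small SE and used the same drug arrays, so nothing is read from either share.

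Socs3, the feedback inhibitor of cytokine and prolactin receptor signalling, was the clearest case. It read 10.85, 10.31 and 9.66 on the 3 AzaC arrays, 10.10, 10.59 and 10.26 on the 3 VPA arrays, and 6.79 and 6.52 on the PBS arrays. The drug arrays overlapped each other fully and all stood above both PBS arrays. Its rise was 3.62 ± 0.29 (SE, adjusted p = 0.000683 with limma) with AzaC and 3.66 ± 0.29 (SE, adjusted p = 0.000602) with VPA, and the drugs differed by -0.04 (95% interval -0.61 to 0.52). The 250 bases before its start are shown beside those of Prss35, which fell with both drugs, because CpG sites are where AzaC acts; capitals mark the CpG dinucleotides. The sequences are from RefSeq (GRCm38.p6), 5′ to 3′ on the strand of the gene: Socs3 on the minus strand at chr11:117969367-117969616 and Prss35 on the plus strand at chr9:86743383-86743632.
Socs3: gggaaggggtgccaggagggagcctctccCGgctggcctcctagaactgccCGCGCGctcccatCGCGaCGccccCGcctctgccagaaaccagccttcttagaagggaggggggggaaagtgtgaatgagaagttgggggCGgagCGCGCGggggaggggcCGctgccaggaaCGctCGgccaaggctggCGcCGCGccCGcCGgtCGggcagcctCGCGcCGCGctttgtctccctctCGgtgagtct
Prss35: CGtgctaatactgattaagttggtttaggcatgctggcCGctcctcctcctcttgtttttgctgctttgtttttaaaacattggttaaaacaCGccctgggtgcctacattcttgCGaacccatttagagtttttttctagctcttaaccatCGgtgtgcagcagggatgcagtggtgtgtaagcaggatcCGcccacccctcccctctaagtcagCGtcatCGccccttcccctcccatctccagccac
The Socs3 stretch holds 26 CpG and the Prss35 stretch 8. In windows of 300 bases around the start, Socs3 had 31 CpG and Prss35 had 12. Steap1, which also fell with both drugs, had 33 in this window, and Tspan17, which rose with both, had 29. Whether CpG content goes with the response to either drug was not tested.

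The other genes with the largest matched rises were Grb7, an adaptor protein that binds activated ErbB receptors, Chmp4c, a subunit of the membrane-cutting ESCRT-III complex, and Tspan17, a tetraspanin. Grb7 read 8.68, 8.49 and 8.62 with AzaC, 8.51, 8.57 and 8.83 with VPA, and 6.09 and 5.57 with PBS. It rose by 2.77 (adjusted p = 0.0100) and 2.81 (adjusted p = 0.0110), and the drugs differed by -0.04 (interval -0.87 to 0.79). Chmp4c rose by 2.74 and 2.82, with a difference of -0.08 (-0.95 to 0.79) between the drugs. Tspan17 rose by 2.73 and 2.70, with a difference of 0.03 (-0.89 to 0.95), and its VPA arrays, at 9.00, 9.07 and 9.06, lay within the range of its AzaC arrays. In all 3 genes the intervals between the drugs are wide beside the differences, since they are widened by variable arrays of other groups.

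Among genes that fell, Prss35, a secreted protein related to serine proteases, read 4.29, 5.07 and 4.60 with AzaC, 4.90, 4.64 and 4.04 with VPA, and 7.06 and 7.24 with PBS. It fell with both drugs, with differences from PBS of -2.50 and -2.62 (adjusted p = 0.0112 and 0.0108), and the drugs differed by 0.13 (interval -0.65 to 0.90). Sqle, the squalene epoxidase of cholesterol synthesis, read 8.85, 10.14 and 8.49 with AzaC, 9.47, 9.33 and 8.72 with VPA, and 11.63 and 11.43 with PBS. The drugs differed by -0.01 (-0.84 to 0.81), and AzaC replicate 2 was the highest of the 6 drug arrays. Il15, a cytokine that sustains natural killer and memory T cells, fell with both, with differences from PBS of -2.26 and -2.60 and a difference of 0.34 (-0.32 to 1.00) between the drugs. Steap1, a membrane protein of the metalloreductase family, fell by 2.29 and 2.25, with a difference of -0.05 (-0.80 to 0.71).

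**Figure D2:**
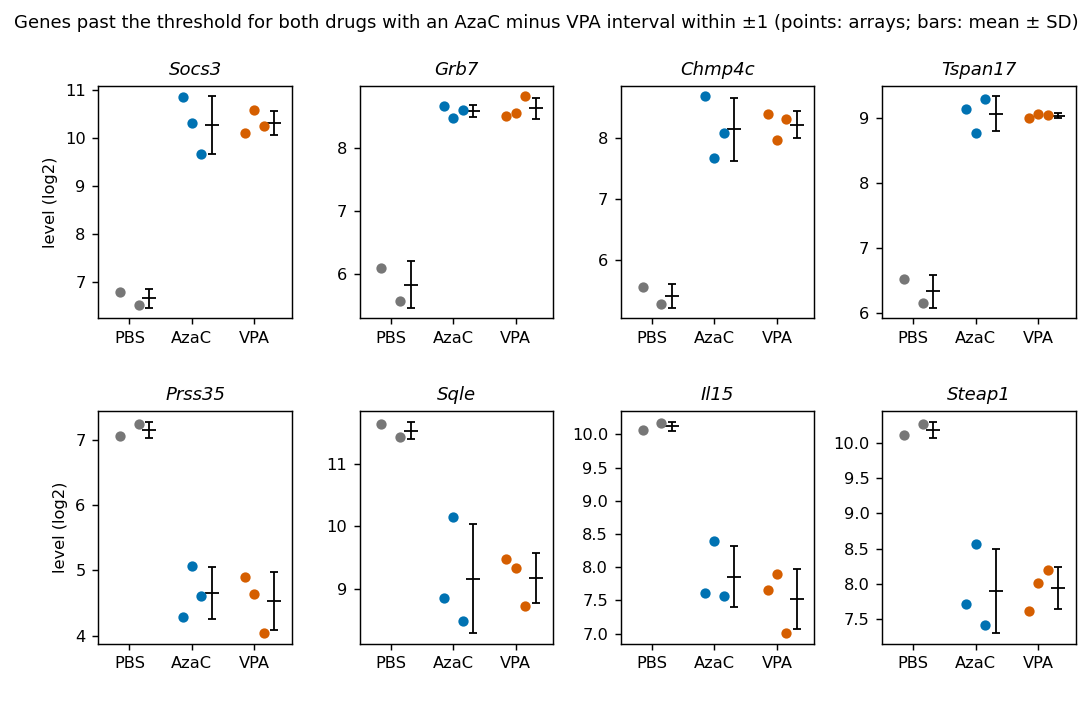
Levels (log2) of the 8 genes with the largest matched responses on each array labelled pregnant (points: 2 PBS, 3 AzaC, 3 VPA), with the mean ± SD of each group at the right of its points. In each panel the AzaC and VPA points overlap and lie on one side of both PBS points.

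Some of the largest responses could not be placed, because their replicates were spread. Angptl4, which blocks lipoprotein lipase outside the cell, rose by 4.91 with AzaC and 5.31 with VPA (adjusted p = 0.0115 and 0.0108), but its interval between the drugs ran from -1.96 to 1.16. Kit, a receptor tyrosine kinase of luminal progenitor cells, read 11.79, 10.78 and 11.61 with AzaC and 11.75, 11.28 and 10.12 with VPA, against 7.33 and 7.18 with PBS. Its interval between the drugs ran from -1.41 to 2.10. Uhrf1, which guides the maintenance methyltransferase to newly copied DNA, fell by 3.61 and 3.69 and had an interval from -1.71 to 1.88. Mki67, a marker of cycling cells, read 6.68, 9.39 and 6.37 with AzaC and 6.90, 6.45 and 9.40 with VPA, so 1 array of each drug was high.

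The direct targets of the agents and their relatives showed no separation beyond the spread. Dnmt1, the maintenance DNA methyltransferase that AzaC traps, read 10.51, 10.10 and 10.38 with AzaC and 10.35, 10.25 and 10.54 with VPA, a difference of -0.05 (interval -0.46 to 0.36). The de novo methyltransferases Dnmt3a and Dnmt3b differed by 0.13 (-0.26 to 0.53) and 0.33 (-0.12 to 0.78). Of the class I deacetylases that VPA inhibits, Hdac1 differed by -0.14 (-0.58 to 0.30), Hdac2 by -0.11 (-0.72 to 0.50) and Hdac3 by -0.18 (-0.58 to 0.22). Hdac8 was not measured. Of 15 measured writers, erasers and readers of DNA methylation, 9 (60%) had an interval within -1 and 1. So did 6 of 8 deacetylases (75%), beside 68.7% of all genes. The arrays of the drugs did not separate for any gene of either list. Since 8.05% of all genes had separated arrays, nothing is read from this for lists so short. Hdac7, a class IIa deacetylase, rose with AzaC by 1.04 (adjusted p = 0.0221) and differed from PBS by 0.66 with VPA (adjusted p = 0.0957). Between the drugs it differed by 0.38 (interval -0.05 to 0.80, adjusted p = 1).

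Genes of groups that are known to respond when methylation or deacetylation is blocked were described by their medians and by their members with separated arrays. Of 31 germline genes that DNA methylation keeps silent in body cells, the median AzaC minus VPA difference was -0.01, against -0.03 over all genes, and 0 rose with either drug against PBS. Of these 31, Taf7l and Adad1 (6.45%, beside 5.54% of all genes) had every VPA array above every AzaC array, and Piwil2 (3.23%, beside 2.52%) the opposite order. The 41 imprinted genes had a median of -0.03 and 0 members with separated arrays, beside 8.05% of all genes. The 29 genes often raised by deacetylase inhibitors had a median of -0.10. Of these 29, 3 rose with AzaC and 5 with VPA against PBS, where 3.76% and 3.64% of all genes rose, and 2 had every VPA array above every AzaC array, a share of 6.90% beside 5.54% of all genes. Those 2 were Tagln, an actin-binding protein of smooth muscle and myoepithelium, at 11.06, 10.85 and 10.74 with AzaC and 11.34, 11.44 and 11.87 with VPA, and Crip1, a small LIM-domain protein, with a difference of -0.57. The 30 neuronal genes repressed by REST outside the nervous system had a median of 0.04, and 1 of them, Chga (3.33%), had every VPA array above every AzaC array. Many of the germline and neuronal genes read near the bottom of the scale, and 8 of 31 and 12 of 30 had an interval within -1 and 1, so differences of 2-fold were not detectable for most of them.

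Pathways of lipid synthesis and growth lay below PBS with both drugs. Of all genes, 3.81% fell with AzaC and 2.34% with VPA, which is the background for the counts that follow. Of 21 measured genes of cholesterol synthesis, 9 fell with AzaC and 8 with VPA, with median differences from PBS of -1.12 and -1.38 and a median of -0.14 between the drugs. Cyp51, which demethylates lanosterol, fell by 3.24 and 3.06, and Idi1, the isopentenyl diphosphate isomerase, by 2.94 and 2.77. Of 32 measured genes that make fatty acids and triglycerides, 13 fell with AzaC and 9 with VPA. Fasn, the fatty acid synthase, fell with both (adjusted p = 0.0338 and 0.0484), and the drugs differed by -0.11 (interval -0.88 to 0.66). Of 46 genes of DNA replication, 14 fell with AzaC and 20 with VPA, with medians of -0.99 and -1.05. Pcna, the sliding clamp of the replication fork, fell by 1.79 and 1.48. Of 50 genes of mitosis 6 fell with AzaC and 4 with VPA. The list lay at medians of -1.27 and -1.24, but 1 array of each drug was close to PBS: relative to PBS the list read -0.70 on AzaC replicate 2 and on VPA replicate 3, and -1.50 to -1.68 on the other 4 drug arrays. Of the milk-protein genes, 21 of 23 had an interval within -1 and 1 (91.3%, beside 68.7% of all genes). The median member read no lower than 13.68 on any of the arrays labelled pregnant, close to the top of the scale, where differences may be compressed. Wap, the whey acidic protein, differed by -0.04 (-0.36 to 0.28) and Lalba, the alpha-lactalbumin subunit of lactose synthase, by -0.03 (-0.28 to 0.22).

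The genes with the smallest p among those with separated arrays and a level above the median gene show where the drugs differed most; none of them passed the threshold. With AzaC the highest-ranked was Brca2, which loads the recombinase at broken DNA. It read 7.95, 8.08 and 8.04 with AzaC, 7.22, 7.47 and 7.57 with VPA, and 8.13 and 8.55 with PBS, so the VPA arrays were the low ones. It fell with VPA by 0.92 ± 0.19 (SE, adjusted p = 0.0250) and differed from PBS by -0.32 with AzaC (adjusted p = 0.327). The difference between the drugs was 0.60 ± 0.17 (SE, interval 0.23 to 0.98, adjusted p = 1). Ccnd1, the cyclin D1 that alveolar growth requires, read 9.68, 10.48 and 10.24 with AzaC, 9.55, 8.88 and 9.58 with VPA, and no lower than 11.87 with PBS. It fell with both drugs, with differences from PBS of -1.80 and -2.60 (adjusted p = 0.0121 and 0.00616), and read 1.74-fold higher with AzaC than with VPA (interval 0.19 to 1.40 on the log2 scale). The lowest AzaC array of Ccnd1 (9.68) lay close to its highest VPA array (9.58).

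The other 10 of the 12 genes that read higher with AzaC differed by 0.29 to 0.92. They included Nectin4, a cell adhesion molecule, Adcy3, an adenylate cyclase, Gmnn, the geminin inhibitor of repeated replication, and Traf3ip2, an adaptor of the interleukin-17 receptor. Nectin4 read 8.62, 8.32 and 8.56 with AzaC, 8.20, 8.24 and 7.89 with VPA, and 7.71 and 7.91 with PBS. It rose with AzaC by 0.69 (adjusted p = 0.0279) and differed from PBS by 0.30 with VPA (adjusted p = 0.269). The difference of 0.92 for Tfcp2l1, a transcription factor, came with 1 high AzaC array: its AzaC arrays read 7.88, 8.04 and 9.69, and without AzaC replicate 3 the difference was 0.34. Adcy3 read 12.83, 12.45 and 12.64 with AzaC and 12.37, 12.26 and 11.75 with VPA. Its probe sets disagreed: with the mean of all its probe sets the difference was -0.07. The immediate early genes Fosl2 and Nr4a1 differed by 0.31 and 0.45. They belong to a list of 30 immediate early genes of which 25 read higher with AzaC, with a median of 0.18. Of that list, 10 rose with AzaC and 5 with VPA against PBS, beside 3.76% and 3.64% of all genes, and 2 had every AzaC array above every VPA array (6.67%, beside 2.52% of all genes). The opposite order held for 1 (3.33%, beside 5.54% of all genes). The medians of the list against PBS were 1.00 with AzaC and 0.88 with VPA.

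Among genes higher with VPA, Lgals1, the sugar-binding protein galectin-1, had the smallest p of any gene above the median level. It read 9.53, 9.65 and 9.74 with AzaC, 10.38, 10.38 and 10.84 with VPA, and 10.12 and 10.04 with PBS. The PBS arrays lay between the drugs, and neither drug differed from PBS beyond the threshold (-0.44 with AzaC and 0.45 with VPA, adjusted p = 0.172 and 0.171). It was 1.86-fold higher with VPA, a log2 difference of -0.89 ± 0.17 (SE, interval -1.27 to -0.52, adjusted p = 0.885). Over the alternatives its difference ranged from -0.97 to -0.69 and its smallest adjusted p was 0.287. Map1lc3b, which coats autophagosome membranes, read 11.51, 11.65 and 11.63 with AzaC, 12.01, 12.15 and 12.32 with VPA, and 11.08 and 11.16 with PBS. Here both drugs read above PBS, by 0.48 (adjusted p = 0.124) and 1.04 (adjusted p = 0.0148), with a difference of -0.56 (interval -0.92 to -0.21) between them.

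In several of the genes higher with VPA the AzaC arrays lay further from PBS than the VPA arrays. Cst3, the protease inhibitor cystatin C, read 10.16, 10.89 and 10.67 with AzaC, 11.06, 11.62 and 11.48 with VPA, and 11.67 and 11.47 with PBS. It fell with AzaC by 1.00 (adjusted p = 0.0383), differed from PBS by -0.18 with VPA (adjusted p = 0.708), and differed by -0.81 (interval -1.31 to -0.32) between the drugs. Olah, the thioesterase that releases medium-chain fatty acids for milk fat, read 10.58, 11.40 and 10.60 with AzaC and 11.48, 12.17 and 11.77 with VPA, below both PBS arrays at 12.89 and 12.54. It fell by 1.85 with AzaC (adjusted p = 0.0113) and differed from PBS by -0.91 with VPA (adjusted p = 0.0919). It read 1.93-fold higher with VPA than with AzaC (interval -1.52 to -0.37). Stimate, a regulator of calcium entry at the endoplasmic reticulum, and Ube2g2, a ubiquitin-conjugating enzyme of protein degradation there, fell with AzaC by 1.24 and 0.91 and differed between the drugs by -0.91 and -0.60. With VPA they differed from PBS by -0.33 and -0.31, neither past the threshold. Prxl2a, a redox enzyme, fell with AzaC by 1.24 (adjusted p = 0.0120) and differed by -0.68 between the drugs. It differed from PBS by -0.56 with VPA (adjusted p = 0.136). For Olah, Stimate, Ube2g2 and Prxl2a every VPA array also lay below both PBS arrays. Other redox enzymes did not follow this order: Prdx2 differed from PBS by -0.17 with AzaC and 0.54 with VPA, and Gstm5 by -0.40 and 0.25, none past the threshold, with differences of -0.71 and -0.65 between the drugs. Acss2, a cytosolic acetyl-CoA synthetase and a member of the fatty acid list, differed by -1.01 (interval -1.78 to -0.23), with AzaC arrays at 8.78, 8.85 and 8.63 and VPA arrays at 9.02, 10.21 and 10.05.

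**Figure D3:**
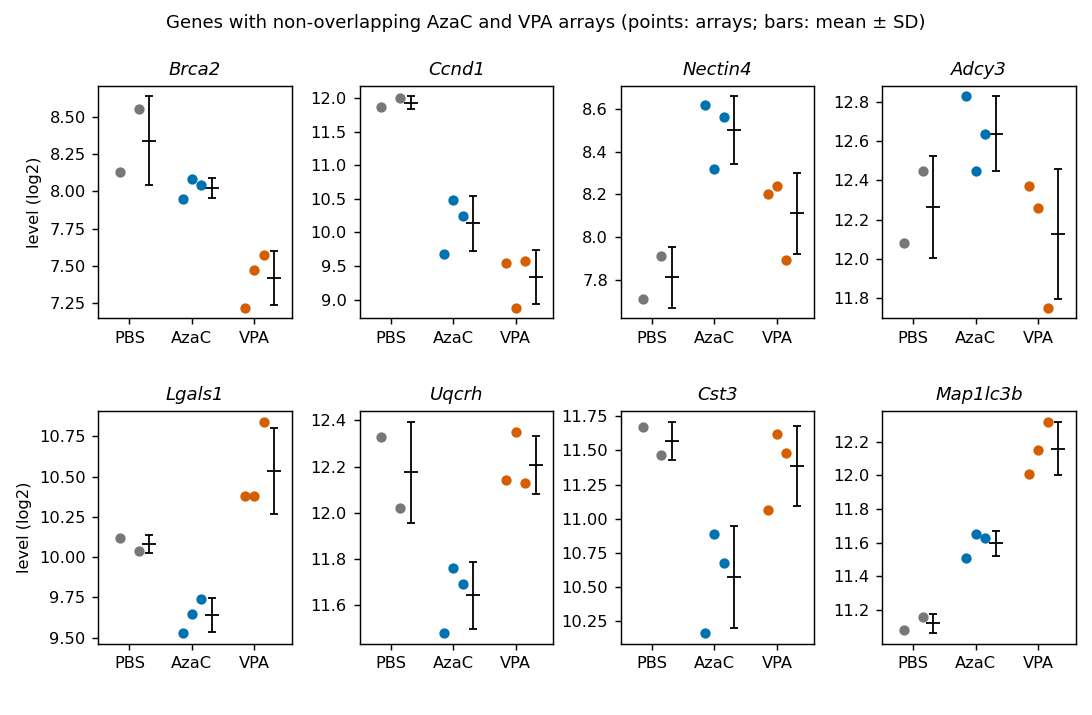
Levels (log2) of 4 genes higher with AzaC (upper row) and 4 higher with VPA (lower row) on each array labelled pregnant (points: 2 PBS, 3 AzaC, 3 VPA), with the mean ± SD of each group at the right. PBS lies beside the AzaC arrays for Brca2, beside the VPA arrays for Uqcrh and Cst3, between them for Lgals1, and outside both for Ccnd1 and Map1lc3b.

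The bases before the start are shown for Brca2 and for Uqcrh, a hinge subunit of respiratory complex III that read higher with VPA, as the pair with the smallest p in each direction that has an entry among the RefSeq promoters (GRCm38.p6, 5′ to 3′ on the strand of the gene, CpG in capitals). Brca2 lies on the plus strand at chr5:150522371-150522620 and Uqcrh on the minus strand at chr4:116075071-116075320.
Brca2: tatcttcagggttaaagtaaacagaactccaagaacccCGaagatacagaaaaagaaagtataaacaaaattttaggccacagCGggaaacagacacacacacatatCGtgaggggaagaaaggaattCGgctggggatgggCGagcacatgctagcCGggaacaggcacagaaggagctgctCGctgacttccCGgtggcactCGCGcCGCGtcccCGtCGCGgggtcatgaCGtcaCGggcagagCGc
Uqcrh: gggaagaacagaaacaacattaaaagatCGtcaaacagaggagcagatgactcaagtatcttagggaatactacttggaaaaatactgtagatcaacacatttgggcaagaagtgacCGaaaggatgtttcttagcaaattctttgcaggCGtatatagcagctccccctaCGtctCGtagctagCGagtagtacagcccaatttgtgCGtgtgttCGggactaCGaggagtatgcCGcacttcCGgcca
These 250 bases hold 18 CpG for Brca2 and 11 for Uqcrh. Across the 300-base windows from 250 before to 50 after the start, the median was 18 CpG over the 9887 measured genes with an entry (79.8% of 12393). It was 14 for the 240 genes with an entry (76.9% of 312) whose arrays were higher with AzaC, and 19 for the 557 (81.2% of 686) whose arrays were higher with VPA. Because fewer than 80% of all genes and of the genes higher with AzaC have an entry, this check of CpG content is void and is given as a description of the genes covered.

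Subunits of oxidative phosphorylation, the mitochondrial chain that turns the oxidation of fuels into ATP, read lower with AzaC than with VPA almost throughout. Of 64 measured subunits 63 were lower, with a median of -0.43 beside -0.03 for all genes, and 24 (37.5%) had every VPA array above every AzaC array, beside 5.54% of all genes. None passed the threshold, and 43 (67.2%, beside 68.7% of all genes) had an interval within -1 and 1. Against PBS the list lay at a median of -0.67 with AzaC and -0.25 with VPA. With AzaC 13 of the 64 members were past the threshold, all of them down, and with VPA 1 was down. Of all genes, 3.81% fell with AzaC and 2.34% with VPA. Relative to the PBS mean the list read -0.84, -0.57 and -0.60 on the 3 AzaC arrays and -0.50, -0.19 and -0.09 on the 3 VPA arrays. The 2 groups of arrays did not overlap, and AzaC replicate 1 was the lowest.

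The shift was shared by the complexes of the chain. All 28 subunits of complex I, the NADH dehydrogenase, were lower with AzaC (median -0.45, 13 with separated arrays), as were all 9 of complex III and cytochrome c (-0.38, 2), all 9 of complex IV, the cytochrome c oxidase (-0.42, 5), and all 14 of the ATP synthase (-0.44, 3). Of the 4 subunits of complex II, the succinate dehydrogenase, 3 were lower, and Sdhd was the exception at 0.21 (interval -0.40 to 0.82). Uqcrh read 11.48, 11.76 and 11.69 with AzaC, 12.14, 12.35 and 12.13 with VPA, and 12.33 and 12.02 with PBS, so the VPA arrays lay at the PBS level; the drugs differed by -0.56 ± 0.14 (SE, interval -0.87 to -0.26). Ndufb9, a subunit of complex I, fell with AzaC by 1.05 (adjusted p = 0.0309), differed from PBS by -0.33 with VPA, and differed by -0.71 (interval -1.20 to -0.22) between the drugs. Atp5e, the small epsilon subunit of the ATP synthase, had the largest difference of the list, -0.89 (interval -1.55 to -0.24), with AzaC arrays from 9.78 to 10.62 and VPA arrays from 10.65 to 11.65.

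The size of this shift depended on the scaling of the arrays. After quantile normalization the median of the list was -0.28, with 57 of 64 lower with AzaC, and 3 members (4.69%) had separated arrays beside 3.36% of all genes. In the deposited values, genes with a mean from 10 to 12, where most of these subunits lie, had a median difference of -0.15, and 12.2% of them had every VPA array above every AzaC array. After quantile normalization the median of genes at that level was 0.01. Without AzaC replicate 1 and VPA replicate 3, which had the largest Gapdh 3' to 5' differences, the median was -0.26 and 63 of 64 were lower with AzaC. The median was below 0 under all 17 alternatives, from -0.56 to -0.26. Markers of skeletal muscle, a tissue rich in these subunits, read lower with AzaC for 15 of 15 genes (median -0.53), and without the same 2 arrays their median was -0.01; their part in the shift was not tested.

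**Figure D4:**
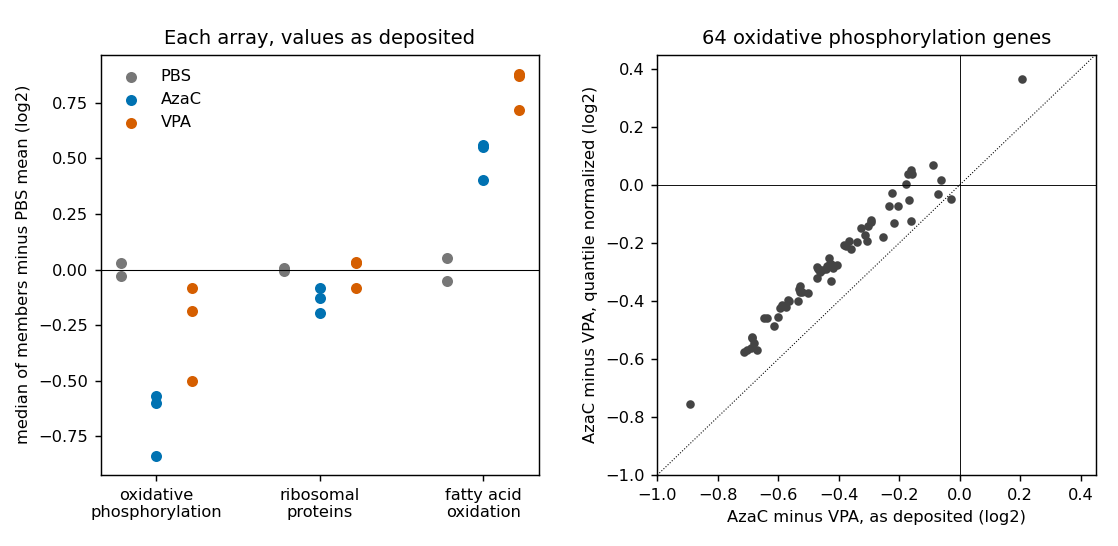
Left: median of the members of 3 gene lists minus the PBS mean (log2) on each array labelled pregnant, with the AzaC points below the VPA points for oxidative phosphorylation (-0.84 to -0.57 against -0.50 to -0.09). Right: AzaC minus VPA difference (log2) of each of the 64 oxidative phosphorylation genes in the deposited values (horizontal) and after quantile normalization (vertical), where 63 of 64 points lie above the dotted line of equality and 57 lie below 0.

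Other abundant transcripts of the cell's basic machinery were lower with AzaC to a smaller degree. Of 42 cytosolic ribosomal proteins 36 were lower (median -0.17). In 14 (33.3%) every VPA array was above every AzaC array, beside 5.54% of all genes and 9.54% of genes with a mean above 12. After quantile normalization the median was -0.09, and 4 (9.52%) had this order, beside 3.36% of all genes. Differences of the ribosomal proteins from PBS were small, with medians of -0.17 with AzaC and -0.01 with VPA. None passed the threshold in either, where 3.76% of all genes rose and 3.81% fell with AzaC, and 3.64% rose and 2.34% fell with VPA. Rpl35, of the large subunit, read 11.98, 11.95 and 11.71 with AzaC and 12.14, 12.51 and 12.99 with VPA, against 12.99 and 12.88 with PBS. Glycolysis had a median of -0.24 over 20 genes, with 7 down with AzaC and 3 with VPA, beside 3.81% and 2.34% of all genes. Every VPA array was above every AzaC array for 3 of its genes (15%, beside 5.54% of all genes). After quantile normalization its median was -0.16, and 1 gene (5%, beside 3.36% of all genes) had this order. Pgk1, the phosphoglycerate kinase, fell with AzaC by 0.83 (adjusted p = 0.0404), differed from PBS by -0.29 with VPA, and differed by -0.54 (interval -0.96 to -0.11) between the drugs. Slc16a1, the monocarboxylate carrier MCT1, fell with AzaC by 0.94 (adjusted p = 0.0238) and differed by -0.60 ± 0.18 (SE) between the drugs.

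Genes of fatty acid oxidation and other targets of the PPAR receptors moved against the respiratory chain. Their medians were above PBS with both drugs, and further above with VPA. Of 38 measured genes 9 rose and 2 fell with AzaC, and 11 rose and 1 fell with VPA. Of all genes 3.76% rose and 3.81% fell with AzaC, and 3.64% rose and 2.34% fell with VPA. The medians against PBS were 0.52 and 0.81, and between the drugs 32 of 38 were lower with AzaC (median -0.40). In 7 (18.4%) every VPA array was above every AzaC array, beside 5.54% of all genes. After quantile normalization the median was -0.28, and 1 gene (2.63%) had this order, beside 3.36% of all genes. Ech1, an isomerase of fatty acid oxidation, read 10.28, 10.56 and 10.57 with AzaC, 10.78, 11.41 and 11.37 with VPA, and 9.43 and 9.19 with PBS. It rose with VPA by 1.88 (adjusted p = 0.0135), differed from PBS by 1.16 with AzaC (adjusted p = 0.0506), and differed by -0.72 (interval -1.35 to -0.09) between the drugs. Ucp3, a mitochondrial carrier, rose by 2.12 and 2.56, and Cpt1a, which admits fatty acids into mitochondria, by 1.45 and 1.66, with differences of -0.45 (-1.20 to 0.30) and -0.21 (-0.76 to 0.34). Etfb, which passes electrons from fatty acid oxidation to the respiratory chain, differed by -0.57 (-0.94 to -0.21), with no call against PBS.

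**Figure D5:**
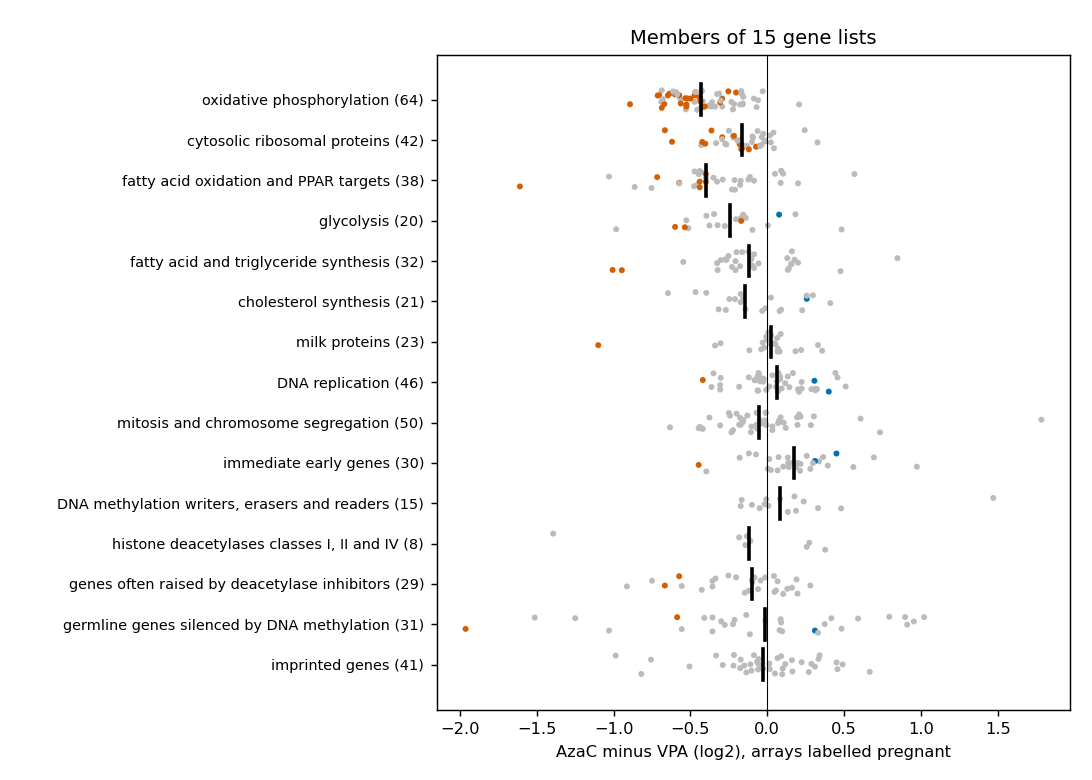
AzaC minus VPA difference (log2) of the measured members of 15 gene lists, with the number of members in brackets and a black bar at the median; orange members have every VPA array above every AzaC array and blue ones the opposite order. Oxidative phosphorylation (median -0.43) and fatty acid oxidation (-0.40) lie lowest, and milk proteins lie close to 0 (0.02).

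Markers of cell types other than the epithelium were summed on each array, to show how far they moved with the drugs. Luminal secretory markers, none of them at 0, had a summed signal of 17.09 to 17.34 (log2) with AzaC and 17.11 to 17.22 with VPA. With PBS it was 16.87 to 17.01. These sums do not measure the purity of the cells, since markers of other cell types were also detected. Adipocyte markers summed to 15.15 to 15.25 with AzaC, 15.06 to 15.24 with VPA and 14.93 to 15.17 with PBS. Skeletal muscle markers, of which all 15 read lower with AzaC, had 1 member with separated arrays (6.67%, beside 5.54% of all genes) and a summed signal of 15.35 to 17.01 with AzaC, which holds the VPA range of 16.64 to 16.81, and of 14.99 to 16.35 with PBS. Fibroblast markers were lower with AzaC for 18 of 18 genes (median -0.28), with overlapping sums of 14.16 to 14.90 and 14.34 to 15.28. Macrophage markers were lower for 13 of 16 (median -0.20), with sums of 13.19 to 13.43 and 13.45 to 13.62, which did not overlap. Every VPA array was above every AzaC array for 2 fibroblast (11.1%) and 3 macrophage markers (18.8%), beside 5.54% of all genes. Both counts were the same after quantile normalization, beside 3.36% of all genes. With PBS the sums were 13.81 to 13.97 and 12.66 to 12.91, below every drug array. Endothelial sums were 12.76 or above on the drug arrays and 11.95 to 12.56 with PBS. Pericyte sums were 11.96 or above on the drug arrays and 11.61 to 11.78 with PBS. No marker of skeletal muscle, fibroblasts or macrophages was at 0 on a drug array. Without AzaC replicate 1 and VPA replicate 3 the median of fibroblast markers was -0.25 and that of macrophage markers -0.29. The part of these cells in the differences of other genes was not tested.

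Of all markers with separated arrays, Cd3d, a T cell receptor subunit listed at 0 on a drug array, differed most (-1.86). Jchain, which joins secreted immunoglobulins and marks plasma cells, came next: it read 5.55, 5.86 and 5.04 with AzaC, 7.24, 6.90 and 6.99 with VPA, and 6.69 and 6.00 with PBS. It was 2.95-fold higher with VPA (log2 difference -1.56 ± 0.42, SE, interval -2.48 to -0.64, adjusted p = 1). Cd79a, a subunit of the B cell receptor, had a like difference of -1.55 with a wide interval (-3.42 to 0.33) and overlapping arrays, at 5.98, 4.42 and 4.30 with AzaC and 7.29, 5.95 and 6.10 with VPA. Of all 10 measured markers of B and plasma cells, these 2 included, 5 were lower and 4 higher with AzaC, Pax5 was at 0 on a drug array, and the summed signal was 11.35 to 11.59 with AzaC and 11.45 to 11.59 with VPA. Of 14 T cell markers 11 were lower with AzaC (median -0.22). In 3 of them (21.4%) every VPA array was above every AzaC array, beside 5.54% of all genes. After quantile normalization there were also 3, beside 3.36% of all genes. Their summed signal overlapped, at 11.27 to 11.42 with AzaC and 11.23 to 11.42 with VPA. Of the basal and myoepithelial markers 15 of 19 were lower with AzaC (median -0.25), and after quantile normalization 12 of 19 (median -0.07). Of 12 markers of luminal progenitors 10 were higher with AzaC (median 0.17), with Kit, described above, among those whose interval was wide.

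The smallest p-values of all belonged to genes near the bottom of the scale, where many arrays were listed at exactly 0. Cdr2l, a homologue of a cerebellar autoantigen, had the smallest adjusted p (0.189): it was listed at 0 on all AzaC and PBS arrays and read 3.14, 2.11 and 1.45 with VPA. Otx2, a homeobox factor of the forebrain, was listed at 0 on all VPA and PBS arrays and read 2.25, 3.47 and 1.07 with AzaC. Taf7l, a testis-expressed transcription factor subunit, read 0, 1.11 and 0.35 with AzaC, 2.85, 2.36 and 2.14 with VPA, and 1.20 and 0.89 with PBS. These genes were chosen after their values were seen, and with a floor at 5 each of these differences became 0. Leaving out single arrays brought such genes past the threshold: Cdr2l without VPA replicate 1 (adjusted p = 0.0171) or VPA replicate 3 (0.00324), Otx2 without AzaC replicate 3 (0.0108), Cpn1 without VPA replicate 3 (0.00324), and Rhoh without AzaC replicate 1 (0.00789).

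Genes called against PBS with 1 drug but not with the other were also not shown to differ between the drugs. Of 369 genes called with AzaC and not with VPA, 0 passed in the direct comparison, 58 had an unadjusted p under 0.05, and 257 (69.6%) had an interval within -1 and 1. Of 172 genes called with VPA and not with AzaC, 0 passed, 23 had an unadjusted p under 0.05, and 120 (69.8%) had such an interval. In these sets every array of one drug was above every array of the other for 75 genes (20.3%) and 51 genes (29.7%), beside 8.05% of all genes, but the sets were chosen with the same drug arrays, so nothing is read from these shares.

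Whether the gap between the drugs depended on the stage label, which the readings of Csn2 and Olah do not settle, was tested as an interaction. It was past the threshold for 0 of 12393 genes (0%), with a smallest adjusted p of 0.998 and 434 genes at an unadjusted p under 0.05. The median SE of the interaction was 0.38, so a lack of calls does not show that the gap was the same at both labels. The AzaC arrays labelled virgin were spread: on the first component replicate 1 lay at -29.1, and replicates 2 and 3 at 2.0 and 7.4. Without virgin AzaC replicate 1, 0 genes passed and 1074 had an unadjusted p under 0.05. Oxidative phosphorylation had a median AzaC minus VPA difference of -0.19 in arrays labelled virgin, where fatty acid oxidation had a median of 0.28. The gene with the smallest p, Eqtn, a protein of the sperm acrosome, had gaps of -0.95 in arrays labelled pregnant and 1.91 in those labelled virgin. Fgf10, which stromal cells secrete to guide the epithelium, had gaps of 0.10 and 1.41: it read 4.86 to 5.15 on the 6 drug arrays labelled pregnant, 4.26 to 4.72 with AzaC and 2.76 and 3.30 with VPA in those labelled virgin. Without virgin AzaC replicate 3, 1 gene passed (Neurog1), and without virgin VPA replicate 2, 3 genes passed (Actl11, Adra2c and Zmat5); all 4 had a mean level under 1.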

How the data were processed

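The deposited table holds 22690 probe sets with values from 0 to 14.48 in 2 decimals. The authors' values were read as log2 signals: their range is that of Affymetrix intensities on this scale. The base of the logarithm, the summary method and the normalization are not given in the sources used here. Of the probe sets, 20380 have 1 symbol in the platform annotation, 691 have several, 1555 have none and 64 are controls. Each gene is represented by its single-symbol probe set with the highest mean over the 15 arrays, with no filter on dim genes.

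With limma 3.58.1 (R 4.3.3), lmFit estimated a mean for each of 6 groups from the 15 arrays, and eBayes moderated the variances (9 residual and 2.31 prior degrees of freedom, two-sided tests, Benjamini-Hochberg adjustment over 12393 genes, threshold 0.05). The fit was tested on simulated data. No set test was run. Figures were drawn with matplotlib 3.10.9.

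The comparison, the 46 gene lists (1058 of 1244 symbols measured) and the rules were chosen with earlier results of these data known. Genes were named as follows: the 12 in each direction with the smallest p among genes with non-overlapping arrays and a group mean at or above the median gene (7.79), the 4 largest matched responses in each direction, up to 3 members per list with the smallest p, a fixed set, and the 6 with the smallest p for the stage dependence. Clone and predicted names were skipped, not every gene so chosen is described, and list members named outside this rule, such as Cyp51, Idi1, Fasn, Pcna, Ucp3, Cpt1a, Atp5e and Sdhd, were chosen after their values were seen. Replicate numbers did not pair arrays: correlations of the deviations of same-numbered AzaC and VPA arrays were -0.11, 0.03 and -0.09. Alternatives tried were quantile normalization, leaving out dim genes, the mean of all probe sets, trend and robust eBayes, fewer arrays, the replicate number as a block, a floor at 5, a minimum change, and each array left out in turn.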

Additional observations from a re-analysis of the deposited data

How the results depend on the processing

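Between the drugs, 0 genes passed under 10 of the 11 alternatives that kept all 6 arrays and were not chosen after seeing the data. When only the 8 arrays labelled pregnant were fitted, 1 passed (Atxn1, mean level 0.91), and 0 to 2 passed when 1 array was left out. Separated arrays were counted for 640 genes among the 7784 left without dim genes, and for 1493 to 2971 when an array was left out, as fewer arrays separate more easily. Genes past the threshold against PBS numbered 1419 (AzaC) and 1136 (VPA) without dim genes, 0 and 364 when only the 5 arrays compared were fitted, 14 to 1335 and 20 to 231 when 1 array was left out, and were split as 48.5% up with VPA after quantile normalization (60.9% as deposited). The stage interaction passed for 1 gene with a floor at 5 (Trim13) and for 0 to 3 when an array was left out. With the replicate number as a block, 0 genes passed between the drugs (613 at an unadjusted p under 0.05), and 466 (AzaC) and 241 (VPA) against PBS; the numbers do not pair the arrays.

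Chosen after seeing the data were 3 alternatives. With the Gapdh 3' to 5' difference as a covariate, 0 genes passed between the drugs, 1623 with AzaC and 1233 with VPA. Without AzaC replicate 1 and VPA replicate 3 these counts were 3 (Cdr2l, Cpn1 and Rhoh), 201 and 131, and 3055 genes had separated arrays. Over every non-control probe set, 0 passed between the drugs. The causes were not tested. The median of oxidative phosphorylation and the count of intervals within -1 and 1 stayed on their side under all alternatives run. A minimum change and another threshold do not apply to counts of intervals or of separated arrays, the fits of fewer arrays and the block leave the latter as they are, and genes below the dim filter have no value under it. With 3 arrays a group, and a median SE of 0.26, small differences were not detectable, least of all for genes with a mean of 4 or less.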

Other observations

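Several further genes had wide gaps between the drugs, and were chosen here after their values were seen. G0s2, an inhibitor of triglyceride breakdown in cells, read 10.27, 11.82 and 10.12 with AzaC, 11.23, 12.62 and 12.64 with VPA, and 13.31 and 13.23 with PBS. Its AzaC minus VPA difference was -1.43 (95% interval -2.42 to -0.44, adjusted p = 1 with limma), and AzaC replicate 2 overlapped the VPA arrays. Gadd45g, a stress-response gene, read 9.08, 8.80 and 7.86 with AzaC and 9.23, 10.23 and 9.36 with VPA. Mmp11, a matrix metalloproteinase, went the other way, at 6.87 or above with AzaC and 6.62, 5.50 and 4.90 with VPA, against 4.64 and 5.30 with PBS. Igkv8-30, an immunoglobulin light chain variable gene, read 4.08, 5.78 and 4.79 with AzaC and 8.09, 7.73 and 6.88 with VPA. The difference was -2.68 (-4.26 to -1.11), beside the gap of -1.56 for Jchain. Of the 10 measured markers of B and plasma cells, however, 5 were lower and 4 higher with AzaC (median -0.05), and their summed signals overlapped between the drugs.

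Some of the largest mean differences came from 1 array. Ubxn2b read 13.81 on AzaC replicate 2 and 4.31 to 5.52 on the other 5 drug arrays, and Riok1 read 14.10 on AzaC replicate 1 and 8.47 to 8.87 on the other 5.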
